A study of Mus musculus with 14 samples.

Results

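The 10 genes described here belong to the Notch pathway: the receptors *Notch1* and *Notch4*, the ligands *Dll4*, *Jag1* and *Jag2*, the DNA-binding factor *Rbpj*, and the target genes *Hes1*, *Hey1*, *Hey2* and *Heyl*. They were chosen by name as pathway members, and all 10 were found among the 26528 genes measured in brain and the 28316 genes measured in retina. Single nuclei were profiled from whole retinas and from brain vascular fragments, which are pieces of small vessels enriched on Ficoll with the nuclei of the cells around them. The CKO libraries came from VEcadCreER;Tgfbr1CKO/- mice (*Cdh5CreER;Tgfbr1 CKO/-*), which carry a conditional and a null allele of the TGF-beta receptor gene *Tgfbr1* and a Cre driven in endothelial cells (ECs), made active by 4-hydroxytamoxifen (4HT) between P3 and P5. The control libraries are labelled wild type. The study's control retinas typically carried Cdh5CreER and 1 conditional *Tgfbr1* or *Tgfbr2* allele. Which alleles the control libraries carried is unstated, and their labels do not say whether these mice received 4HT. The mice are described as young adults in the series labels, and the study gives P14 for the retina and brain nuclei. There were 14 libraries: 1 control and 1 CKO from brain, and 1 control and 11 CKO from retina. Fragments from 2 brains were pooled per brain library, and how many mice went into each retina library is unstated, so p-values measure only the spread between libraries. Cre acts in ECs, but no retinal cell type label is named for ECs. Every retinal value below therefore describes a label named for cells to which Cre was not directed, although the Müller glia label also carried EC transcripts. The null allele is present in all cells of the CKO mice.

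Notch receptors are cleaved when a ligand on a neighbouring cell pulls on them, and the freed intracellular part enters the nucleus, binds RBPJ and switches on repressors of the Hes and Hey families. In growing vessels, DLL4 on the leading cell restrains sprouting in its neighbours, and Notch activity supports arterial identity and the recruitment of pericytes and vascular smooth muscle cells (vSMCs). In the retina, *Notch1* and *Hes1* act in progenitors and in the Müller glia derived from them.

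Levels are given as CPM, the unique molecular identifiers (UMIs, each standing for 1 captured transcript) of a gene divided by the UMIs of all genes in the same nuclei and put on the usual count scale. The brain libraries held 16649 control nuclei with 49798325 UMIs (median 1541 per nucleus) and 14675 CKO nuclei with 31033373 UMIs (median 1395). The retina control held 11513 nuclei with 30989702 UMIs (median 1595 per nucleus). The 11 retina CKO libraries held 104 to 18862 nuclei (median 4210), with 90449 to 55803724 UMIs (median 16443337) and median UMIs per nucleus from 613 to 4041. The shallowest, CKO replicate 4, held 104 nuclei and entered only the comparisons for which it had at least 20 nuclei of a label. Clusters holding nuclei of CKO replicates 4 and 5 had also been taken out by the authors during curation. With 1 library per brain genotype, brain differences have no replicate check: ranges in brackets after brain values are exact 95% intervals that cover counting error only, and no brain p-value is given.

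*Tgfbr1*, the targeted gene, was read first. In nuclei labelled ECs it stood at 69.1 CPM in control (401 UMIs) and 62.9 CPM in CKO (431 UMIs), a ratio of 0.910 (0.792 to 1.05). These intervals overlap widely, and UMIs counted per gene do not show whether the loxP-flanked part of the transcript was lost, so the counts do not test the deletion. In vSMCs the values were 65.9 CPM (102 UMIs) and 34.8 CPM (9 UMIs), a ratio of 0.528 (0.235 to 1.04). In pericytes it rested on 4 control and 3 CKO UMIs (32.8 and 326 CPM; ratio 9.92, 1.45 to 58.6), in a label where 72.0% of genes passed the 1.5-fold rule given below and rescaling shifted log2 ratios by −1.45, so no difference is read from it. In the retina, *Tgfbr1* in Müller glia was 97.3 CPM in control against 55.8 to 89.7 CPM (median 81.5) in 10 CKO libraries, and in rods 114 CPM against 85.4 to 102 CPM (median 88.3). The control was the highest library in both retinal cell types. In the retinal fits described below, the *Tgfbr1* log2 difference was −0.39 ± 0.23 (SE) in Müller glia and −0.24 ± 0.15 in rods. Only in cones was it above 0, at 0.07 ± 0.33, and *Tgfbr1* was not called in any retinal label. These differences rest on 1 control library, and the part of the null allele in them was not tested.

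The EC label was then set against marker lists. All 10 EC markers were found in both brain libraries, summing to 10969 CPM in control and 9218 CPM in CKO, with *Flt1* the most abundant (3982 and 2745 CPM). All 8 pericyte markers were found in the same nuclei, at 8338 and 7066 CPM with *Rgs5* leading, and 85.4% of control and 95.5% of CKO EC nuclei held at least 1 pericyte UMI. The EC label thus carries both EC and pericyte transcripts. The pericyte sum rests mostly on *Rgs5*, at 5631 CPM in control and 4831 CPM in CKO. Of the vSMC markers, 5 of 6 were found at 99.6 and 94.4 CPM, led by *Acta2*, with *Cnn1* at 0 in both libraries. The 5 capillary markers fell from 10308 to 4906 CPM, led by *Slc16a1*, while the 8 arterial markers (1213 and 1146 CPM, led by *Sox17*) and the 5 venous markers (794 and 718 CPM) moved less. The 8 cycling markers, led by *Top2a*, rose from 265 to 572 CPM. The part of these shifts in the Notch gene results was not tested, except where values are given below without pericyte-rich or cycling nuclei.

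ECs held most of the vascular Notch transcripts. Of all UMIs of the receptor gene *Notch4* in brain, 84.7% in control and 95.5% in CKO lay in ECs, and for the ligand gene *Dll4* the shares were 88.6% and 97.0%. *Notch1* had 66.8% and 88.4% of its UMIs in ECs, with 10.9% of control UMIs in the label CP_6. The ligand gene *Jag1* was split in control between ECs (53.9%) and vSMCs (32.5%), and in CKO 88.0% lay in ECs. These shares also follow how many nuclei each label holds: vSMCs fell from 449 nuclei in control to 103 in CKO and pericytes from 201 to 22, while ECs numbered 2475 and 2944. *Hes1* had 69.4% and 76.0% of its UMIs in ECs, and *Hey2* 30.5% and 62.5%. *Rbpj*, whose product serves Notch in every responding cell, was spread most widely, with 20.8% and 43.3% in ECs and 18.1% and 21.4% in the label Glut_0.

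In ECs, the targets came apart. *Hes1*, which encodes a repressor induced by Notch and by other signals, was at 1063 CPM in control (1037 to 1090.0; 6168 UMIs) and 385 CPM in CKO (370.3 to 399.8; 2637 UMIs). Its CKO over control ratio was 0.362 (0.346 to 0.379), far outside the counting error of either library. *Hey2*, a repressor linked to arterial identity, was at 32.1 CPM (27.6 to 37.0; 186 UMIs) and 21.2 CPM (17.9 to 24.9; 145 UMIs), a ratio of 0.660 (0.528 to 0.825). *Hey1*, its close relative, was at 86.7 CPM (503 UMIs) and 84.1 CPM (576 UMIs), a ratio of 0.970 (0.859 to 1.09). *Heyl*, which is prominent in mural cells, was at 83.1 CPM (482 UMIs) and 83.9 CPM (575 UMIs), a ratio of 1.01 (0.893 to 1.14). *Hes1* and *Hey2* were therefore lower in CKO beyond counting error, and no difference in *Hey1* or *Heyl* was detectable at this depth.

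Among the receptors, *Notch1* was at 462 CPM (445 to 480.1; 2682 UMIs) and 395 CPM (380.3 to 410.2; 2707 UMIs), a ratio of 0.855 (0.810 to 0.902). *Notch4*, which is largely restricted to endothelium, was at 154 CPM (144 to 164; 893 UMIs) and 101 CPM (94.0 to 109; 695 UMIs), a ratio of 0.659 (0.596 to 0.728). Both receptor genes were lower in CKO, and their control and CKO intervals were apart. *Dll4*, the ligand gene of sprouting ECs, was at 203 CPM (191 to 215; 1177 UMIs) and 149 CPM (140.3 to 159; 1023 UMIs), a ratio of 0.736 (0.676 to 0.801). *Jag1* was at 147 CPM (853 UMIs) and 148 CPM (1015 UMIs), a ratio of 1.01 (0.919 to 1.10). *Jag2* was at 168 CPM (973 UMIs) and 182 CPM (1246 UMIs), a ratio of 1.08 (0.996 to 1.18). *Dll4* was thus the one ligand gene of the 3 whose intervals did not overlap. *Rbpj* was at 146 CPM (846 UMIs) and 134 CPM (920 UMIs), a ratio of 0.921 (0.838 to 1.01) whose interval holds 1.

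**Figure D1:**
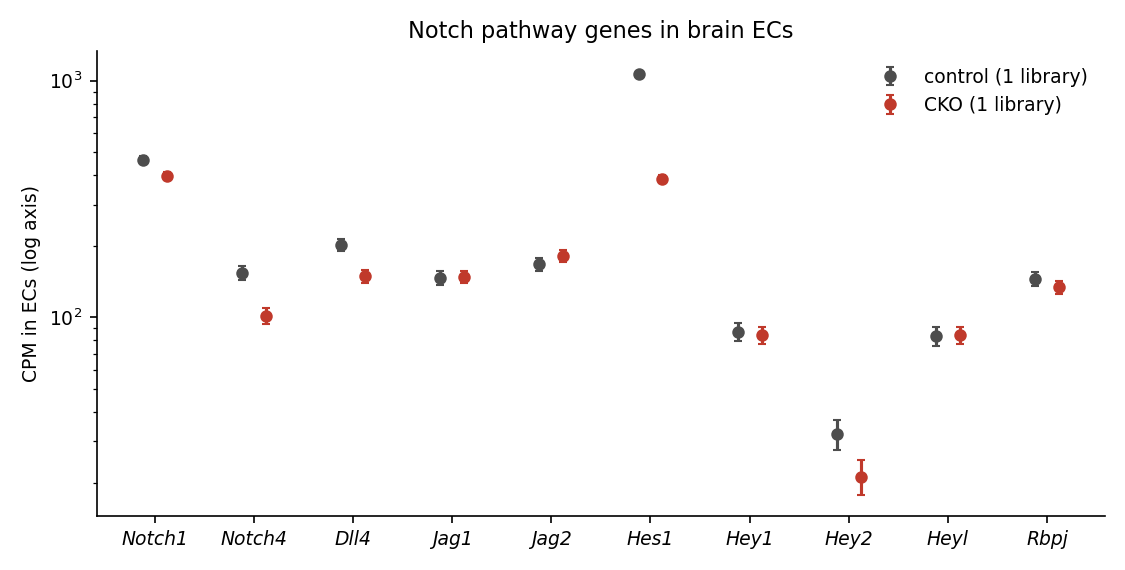
Level of each Notch gene in brain ECs, in CPM on a log axis, with 1 point for the control and 1 for the CKO library and bars for exact 95% counting intervals. *Hes1* falls from 1063 to 385 CPM, and the points of *Hey1*, *Heyl*, *Jag1* and *Jag2* lie close together.

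A gene was called changed where its ratio was at least 1.5-fold in either direction and its UMIs over both libraries reached 50. By this rule 3 of the 10 members were lower (*Notch4*, *Hey2* and *Hes1*) and 0 were higher, against 9.32% lower and 21.4% higher among the 11351 genes with as many UMIs, and 30.7% called in either direction. The members' median log2 ratio was −0.17, and the median over all these genes was 0.14. Scaling by TMM, which sets the bulk of genes near equality, shifted every log2 ratio by −0.10. It named the same 3 members lower and moved the background from 2428 higher and 1058 lower genes (69.7% of calls higher) to 1988 and 1385 (58.9%). At a fold of 2, *Hes1* was the member still called, where 9.45% of genes were higher and 3.90% lower. Of the 11351 genes, 182 (1.60%) had a lower ratio than *Hes1*, and of the 2921 genes with at least 1000 UMIs, 26 did.

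These calls were followed through other ways of choosing and weighting EC nuclei. With only nuclei holding fewer pericyte than EC marker UMIs (1779 control and 2090 CKO), *Hes1* went from 1039 to 359 CPM (ratio 0.346) and *Notch4* from 159 to 99.5 CPM (0.627), and both stayed called. *Hey2* in those nuclei was at 18.8 and 15.2 CPM, a ratio of 0.807 that no longer met the rule. Without nuclei holding a cycling marker UMI, *Hes1* was at 1128 and 401 CPM (0.356) and *Notch4* at 165 and 103 CPM (0.626), while *Hey2* (0.816) was not called. The *Hes1* difference was therefore as large without those nuclei as with them. In nuclei of any label with UMIs of at least 2 EC markers (3117 and 3083), *Hes1* was at 838 and 364 CPM (0.435), while *Notch4* (0.823) was no longer called, as with nuclei of at least 1000 UMIs (0.692) and after thinning (0.736). Over 8 settings the ratio of *Hes1* ran from 0.337 to 0.435, and *Hes1* alone was called in each of them. The ratios of *Notch4* (0.574 to 0.823), *Hey2* (0.588 to 0.846) and *Dll4* (0.654 to 0.936) stayed below 1 throughout, with the 1.5-fold line inside each range. Those of *Notch1* (0.795 to 1.05), *Hey1* (0.835 to 1.11), *Heyl* (0.835 to 1.29), *Jag1* (0.885 to 1.06), *Jag2* (0.998 to 1.28) and *Rbpj* (0.845 to 1.09) fell on both sides of 1.

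Because depth per nucleus differs, shares of EC nuclei with a UMI were taken after thinning each nucleus to 1000 UMIs, which kept 1470 control and 1889 CKO nuclei and left out 1005 and 1055 shallower ones. *Hes1* was detected in 59.2% (56.6 to 61.7) of control and 29.3% (27.3 to 31.4) of CKO nuclei, and before thinning in 68.9% and 44.3%. *Notch1* was detected in 38.2% (35.7 to 40.7) and 32.9% (30.8 to 35.0), and before thinning in 53.5% and 50.8%. *Notch4* was detected in 14.8% (13.1 to 16.8) and 11.4% (10.0 to 13.0), and before thinning in 27.4% and 19.7%. *Hes1* transcripts were thus found in fewer CKO nuclei, and these 3 members were the ones whose thinned intervals did not overlap. For *Dll4* the intervals met, at 18.7% (16.7 to 20.8) and 15.4% (13.8 to 17.1), against 30.6% and 25.2% before thinning. The other members had thinned shares between 1.80% and 17.0% with overlapping intervals. Oligodendrocytes, which should lack *Hes1* and *Dll4*, served as background with median UMIs of 2328 in control and 954.5 in CKO, against 1347 and 1491 in ECs. There, *Hes1* was found in 0 of 494 thinned control and 0 of 298 thinned CKO nuclei, which allows up to 0.744% and 1.23%, and *Notch4* and *Dll4* were also at 0. *Rbpj* is no such contrast, with 19.8% and 26.8% of oligodendrocytes against 12.6% and 13.0% of ECs.

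EC nuclei were next grouped by marker UMIs, with at least 2 UMIs of a list placing a nucleus in a group that may overlap another. Arterial-marker nuclei numbered 1173 in control and 1415 in CKO (median UMIs 2555 and 2635), and venous-marker nuclei 1024 and 1140 (2865.5 and 2960.5). Nuclei with 0 UMIs of both lists numbered 310 and 427 and were shallow (565 and 608). Cycling-marker nuclei rose from 177 (7.15%) to 626 (21.3%), with median UMIs of 3479 and 2785. *Hes1* was at 1004 and 388 CPM in arterial-marker nuclei (ratio 0.387, 0.366 to 0.409) and at 998 and 365 CPM in venous-marker nuclei (0.366, 0.345 to 0.388). Without either marker it was at 1540.0 and 429 CPM (0.279, 0.229 to 0.338), and in cycling-marker nuclei at 823 and 352 CPM (0.427, 0.386 to 0.473). Lower *Hes1* in CKO was therefore seen in each of these groups of EC nuclei, and differences between groups were not tested.

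Several members differed between cycling and other EC nuclei. Nuclei with 0 cycling UMIs were shallower, with median UMIs of 1211 in control and 1206 in CKO, against 3479 and 2785 in cycling-marker nuclei. The part of this depth gap in the values below was not tested. In nuclei with cycling markers *Dll4* was at 97.2 CPM in control and 141 CPM in CKO, a ratio of 1.45 (1.14 to 1.87). In nuclei with 0 cycling UMIs it was at 225 and 155 CPM, a ratio of 0.688 (0.618 to 0.764). The direction of the *Dll4* difference was thus opposite in the 2 groups, a contrast that was not tested. *Jag2* was higher in CKO in both groups (1.35, 1.07 to 1.71, and 1.12, 1.01 to 1.24), and *Notch1* was at a ratio of 1.06 (0.923 to 1.22) in cycling nuclei against 0.856 (0.801 to 0.914) in the others. Within control, cycling nuclei held less *Dll4* than those with 0 cycling UMIs (ratio 0.432, 0.341 to 0.541), and within CKO the ratio was 0.913 (0.794 to 1.05). Also lower in control cycling nuclei were *Hey1* (0.376, 0.254 to 0.539), *Notch4* (0.596), *Jag2* (0.622), *Notch1* (0.658) and *Hes1* (0.730), while *Rbpj* was higher (1.32, 1.10 to 1.57). In CKO cycling nuclei *Hey1* (0.463), *Jag2* (0.747), *Notch1* (0.814) and *Hes1* (0.877) were lower too, as were *Jag1* (0.791) and *Heyl* (0.732), while the intervals of *Notch4* (0.912, 0.768 to 1.08) and *Rbpj* (1.06, 0.915 to 1.22) held 1. *Notch4* in cycling nuclei did not differ detectably between genotypes, at a ratio of 0.957 (0.741 to 1.25). *Rbpj* was lower in CKO cycling nuclei (0.754, 0.621 to 0.918), while its interval held 1 in nuclei with 0 cycling UMIs (0.938, 0.830 to 1.06). It was also lower in arterial-marker (0.882, 0.791 to 0.984) and venous-marker nuclei (0.886, 0.790 to 0.994). Without either marker it was higher (2.36, 1.22 to 4.91), on 12 and 43 UMIs, and these contrasts between groups were not tested. *Hey1* was the member with the largest ratio of arterial-marker over venous-marker nuclei, at 99.98 and 74.6 CPM in control (1.34) and 97.9 and 77.8 CPM in CKO (1.26). These groups shared 619 nuclei in control and 722 in CKO, so no interval is given for that ratio.

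Another 55 genes of the pathway, listed by role, complete the picture in ECs. Of these, 41 had at least 50 UMIs, and 5 were higher, 3 lower and 33 within 1.5-fold, with a median log2 ratio of 0.11, beside 21.4% higher and 9.32% lower over all genes. The 3 lower genes were *Mfng*, at 62.6 and 33.1 CPM (ratio 0.529, 0.447 to 0.627), *Lfng*, at 47.1 and 26.4 CPM (0.561, 0.463 to 0.680), and *Cntn1*, at 29.3 and 19.0 CPM (0.647). *Lfng* and *Mfng* encode Fringe glycosyltransferases, which modify Notch receptors and change how they answer Delta and Jagged ligands, and *Cntn1* encodes a cell adhesion protein described as a Notch ligand. The 5 higher genes were *Neurl1b*, at 5.00 and 13.3 CPM (2.66), *Psen2*, at 16.5 and 28.6 CPM (1.73), *Kat2a*, at 18.4 and 31.1 CPM (1.69), *Dtx4*, at 11.0 and 17.4 CPM (1.57), and *Maml3*, at 144 and 219 CPM (1.52). They act in ligand endocytosis (*Neurl1b*), receptor cleavage (*Psen2*), transcription with RBPJ (*Kat2a* and *Maml3*) and receptor turnover (*Dtx4*). With the TMM shift of −0.10 in log2, *Dtx4* and *Maml3* would fall short of the 1.5-fold rule. By role, 1 of 4 receptors, 2 of 4 measured glycosylation genes and 2 of 6 measured targets were lower, while 0 of 3 measured ligands and 0 of 9 measured corepressors were called.

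The most abundant genes of several roles stayed within 1.5-fold in ECs. *Adam10*, whose protease cuts Notch after ligand binding, went from 729.6 to 555 CPM, a ratio of 0.761 (0.728 to 0.795). *Maml2*, a coactivator, rose from 607 to 827 CPM (1.36, 1.31 to 1.42). *Notch3*, the mural cell receptor gene, was at 210.1 and 210.0 CPM (1.00). *Notch3* matched between libraries although it belongs chiefly to pericytes and vSMCs, whose markers the EC label also carries. Among the rest, *Ncor1*, a corepressor gene, was at 417 and 482 CPM, and the ligand ubiquitin ligase gene *Mib1* at 192 and 231 CPM. The Notch inhibitor gene *Numb* was at 197 and 234 CPM, and *Nrarp*, a feedback target, at 59.5 and 55.0 CPM.

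**Figure D2:**
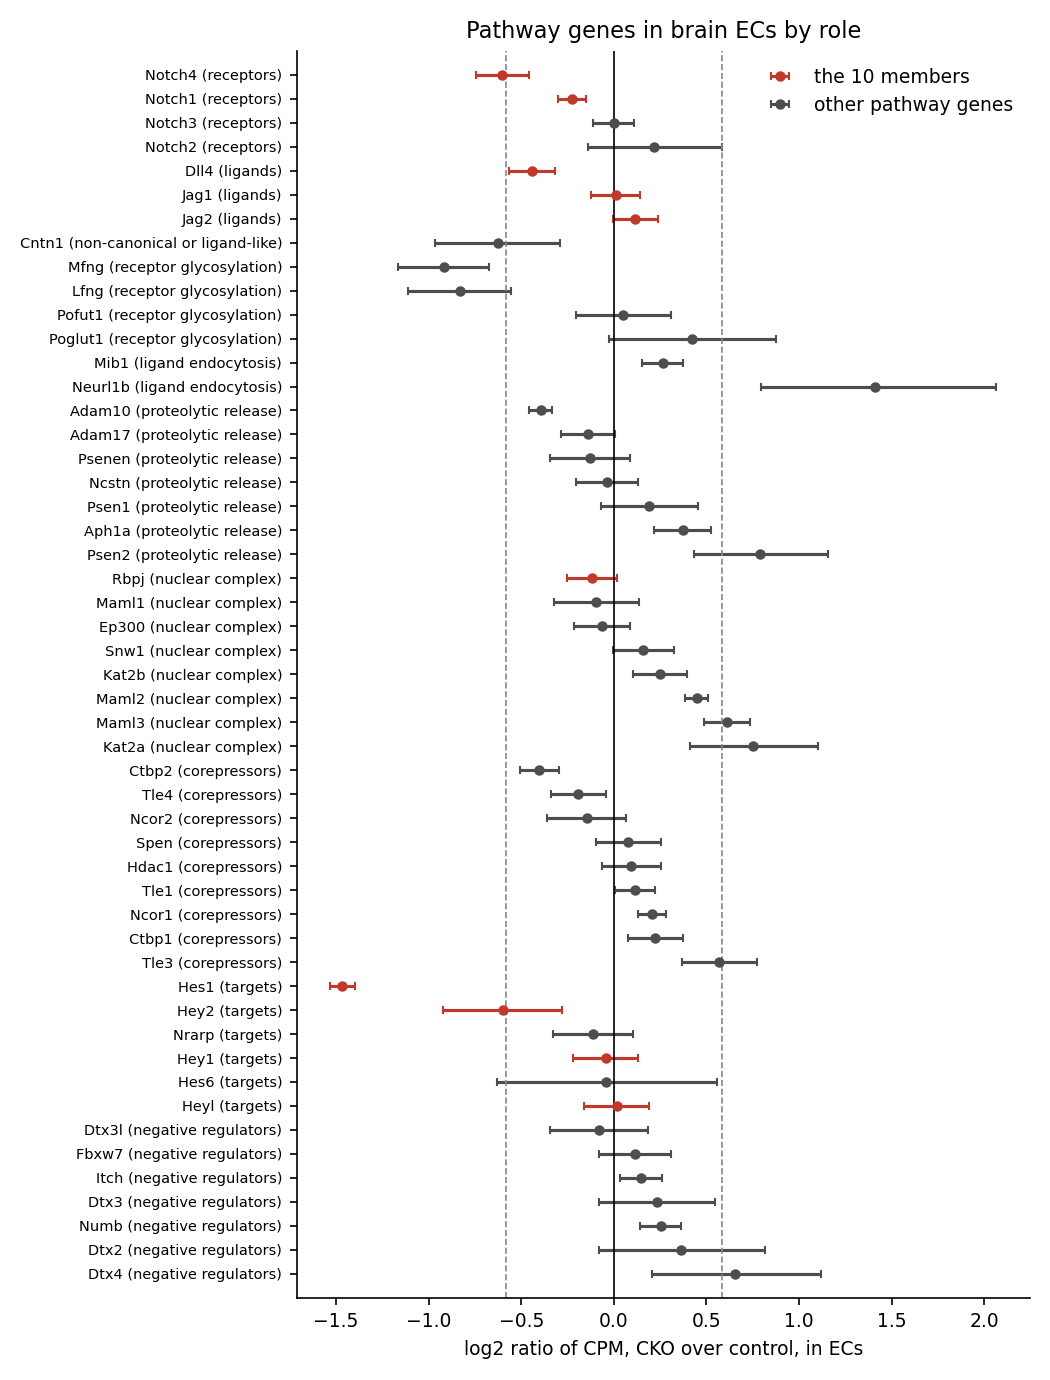
CKO over control log2 ratio in brain ECs of the 51 pathway genes with at least 50 UMIs, grouped by role, with members in red, bars for exact 95% counting intervals and dashed lines at a 1.5-fold difference. *Hes1* lies farthest to the lower side, with *Mfng* and *Lfng* next.

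In the 20 other brain labels a lower limit of 20 UMIs was used. There were 53 pairs of a member and a label with that many UMIs, of which 25 were called in 13 labels, 7 higher and 18 lower (26 after TMM scaling). TMM scaling added lower calls for *Hes1* in Glut_20 (0.644), *Rbpj* in OPCs (0.652), *Hey2* in vSMCs (0.594) and *Jag1* in pericytes (0.471), and took away those for *Jag2* in vSMCs and *Rbpj* in astrocytes and Glut_1. Many of these labels are thin in 1 library. By the same rule, 21.2% (Glut_19) to 84.0% (microglia) of all genes were called in labels with a member call, each share given below. In labels with no member called the share ran from 23.9% (Glut_14) to 59.9% (GABA_22). Genes at large leaned lower in the labels with a call, except Glut_5 (29.4% higher and 25.0% lower) and glia (23.7% and 21.1%). The split of member calls is therefore not read as particular to these genes. *Hes1* was measured in 11 labels including ECs, and was called lower in 4 (ECs, vSMCs, pericytes and astrocytes) and higher in 2 (Glut_0 and Glut_11). *Rbpj* was measured in 18, with 6 lower and 2 higher. *Notch4*, *Dll4* and *Hey1* were measured in 2, 2 and 3 labels, and outside ECs none of the 3 was called.

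In vSMCs, where 35.2% of genes were called, 2 of 10 members were called. *Hes1* was at 654 CPM in control (614 to 695; 1011 UMIs) and 306 CPM in CKO (242 to 381; 79 UMIs), a ratio of 0.468 (0.367 to 0.589). *Jag2* was at 123 CPM (190 UMIs) and 194 CPM (50 UMIs), a ratio of 1.58 (1.13 to 2.16) that fell short of the rule after TMM scaling. Lower *Hes1* was thus seen in this label too, while *Jag1*, the ligand gene abundant in vSMCs, was at 332 and 359.98 CPM (1.08, 0.859 to 1.35). *Notch1* was at 259.9 and 302 CPM there, *Heyl* at 122 and 116 CPM, and *Hey2* at 86.6 and 58.1 CPM (0.670, 0.365 to 1.15). The vSMC markers were 6 of 6 in both libraries, at 4633 and 4161 CPM led by *Acta2*, the 8 pericyte markers at 6331 and 5957 CPM led by *Rgs5*, and the 10 EC markers at 4722 and 4583 CPM led by *Flt1*. *Rgs5* alone stood at 4684 CPM in control and 4660 CPM in CKO, so the higher pericyte sum in this label rests on that gene. Fibroblast markers, 5 of 5 and led by *Col1a2*, rose from 1521 to 3035 CPM. Other lists moved too, among them retinal astrocyte markers (145 to 302 CPM) and cycling markers (174 to 283 CPM), which rose. Of the retinal astrocyte list, *Igfbp5* alone stood at 102 CPM in control and 197 CPM in CKO. Neuron markers fell from 999.6 to 604 CPM, and the part of these lists in the vSMC values was not tested.

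Pericytes numbered 201 nuclei (121845 UMIs) in control and 22 (9213 UMIs) in CKO, where 1 UMI equals 109 CPM. With 72.0% of genes called, 4 of the 5 measured members were lower. The fifth, *Jag1*, was at 336 and 434 CPM (41 and 4 UMIs), a ratio of 1.29 (0.336 to 3.56) that became 0.471 after TMM scaling, so its direction depended on the scaling. *Hes1* was at 1412 CPM (172 UMIs) and 759.8 CPM (7 UMIs), a ratio of 0.538 (0.213 to 1.13). *Heyl* was at 599 CPM (73 UMIs) and 109 CPM (1 UMI), a ratio of 0.181 (0.00453 to 1.04). *Notch1* was at 804 CPM (98 UMIs) in control and 0 in CKO, where 3 counts would be 326 CPM. *Hey2* was at 304 CPM (37 UMIs) and 0, and no fold is given since the control level lies under that floor. Except for *Notch1*, the interval of each of these ratios reaches past 1. The pericyte markers themselves went from 8 of 8 at 27625 CPM to 7 of 8 at 14870.3 CPM, led by *Atp13a5* with *Higd1b* at 0, and EC markers from 10 of 10 at 1855 CPM to 3 of 10 at 2822 CPM, led by *Flt1*. TMM scaling shifted this label by −1.45 in log2, and what these shifts add to the member values was not tested.

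In astrocytes, where 44.9% of genes were called, all 4 measured members were called. *Notch1* was at 214 CPM (292 UMIs) and 87.0 CPM (44 UMIs), a ratio of 0.406 (0.289 to 0.559). *Hes1* was at 184 CPM (251 UMIs) and 103 CPM (52 UMIs), a ratio of 0.558 (0.406 to 0.755). *Hey2* was at 41.1 CPM (56 UMIs) and 13.8 CPM (7 UMIs), a ratio of 0.337 (0.130 to 0.741). These 3 were lower, whereas *Rbpj* was higher, at 41.1 CPM (56 UMIs) and 71.2 CPM (36 UMIs), a ratio of 1.73 (1.11 to 2.68) that was not called after TMM scaling, a shift of −0.24. The 6 astrocyte markers were all found, at 12292 and 12773 CPM led by *Slc1a2*, and EC markers were low at 95.4 and 81.1 CPM. Other lists moved with the members, among them retinal astrocyte markers, which rose from 710.5 to 1472 CPM (led by *Aqp4*), and pericyte markers, which fell from 301 to 198 CPM (led by *Atp13a5*). Median UMIs per nucleus were 1150.5 in 942 control and 578.5 in 644 CKO nuclei, and the part of these markers and of this depth gap was not tested.

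In the label glia, also with 44.9% of genes called, *Jag1* (69.3 and 38.1 CPM), *Heyl* (15.0 and 2.00 CPM, the latter 1 UMI; ratio 0.134, 0.00326 to 0.813) and *Rbpj* (151 and 98.2 CPM) were lower, 3 of 5 measured. *Hes1* in glia was at 329.5 and 362.6 CPM, a ratio of 1.10 (0.926 to 1.30) in which no difference was detectable. Fibroblast markers led in this label, at 3774 and 3896 CPM against 1084 and 1390.2 CPM for astrocyte markers. Its EC markers fell from 807 to 495 CPM, led by *Cdh5*, and its pericyte markers from 1181 to 773 CPM, led by *Atp13a5*. The summed retinal astrocyte markers rose from 619 to 1709 CPM, nearly all of it *Igfbp5*, which alone stood at 583 and 1659 CPM. The part of these lists in the lower *Jag1*, *Heyl* and *Rbpj* was not tested.

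*Hes1* went the other way in labels Glut_0 and Glut_11, which carried all 6 neuron markers in both libraries. In Glut_0, where 26.7% of genes were called, *Hes1* rose from 2.84 CPM (1.95 to 3.99; 33 UMIs) to 25.7 CPM (22.4 to 29.4; 213 UMIs), a ratio of 9.05 (6.25 to 13.5). In Glut_11, with 32.6% of genes called, it rose from 1.33 CPM (3 UMIs) to 32.4 CPM (40 UMIs), a ratio of 24.4 (7.79 to 124). Levels in these labels remained well below those in ECs, astrocytes or vSMCs of the same libraries. The UMIs were spread over nuclei: in Glut_0, 23 of 2112 control (1.09%) and 164 of 3102 CKO nuclei (5.29%) held at least 1, with at most 4 and 8 in a single nucleus. In Glut_11, 3 of 470 (0.638%) and 35 of 563 nuclei (6.22%) did.

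Median depth of these labels was lower in CKO, at 5004 and 2314 UMIs in Glut_0 and 4669 and 1804 in Glut_11, so the higher share came with fewer UMIs per nucleus. Oligodendrocytes, with median depths of 2328 and 954.5, held *Hes1* in 0 of 603 control and 0 of 640 CKO nuclei. The 10 EC markers fell, from 7.06 to 4.58 CPM in Glut_0 and from 22 to 1 UMIs in Glut_11, while the 5 capillary markers, led by *Spock2*, rose from 4.65 to 21.8 CPM in Glut_0 and from 13.3 to 33.2 CPM in Glut_11, and their part in the *Hes1* values was not tested. *Spock2* alone rose from 1.89 to 20.4 CPM in Glut_0 and from 9.29 to 30.0 CPM in Glut_11, and the neuron markers of Glut_0 stood at 6154 and 6345 CPM, led by *Syt1*. Neither difference has a replicate, and library and genotype cannot be told apart.

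**Figure D3:**
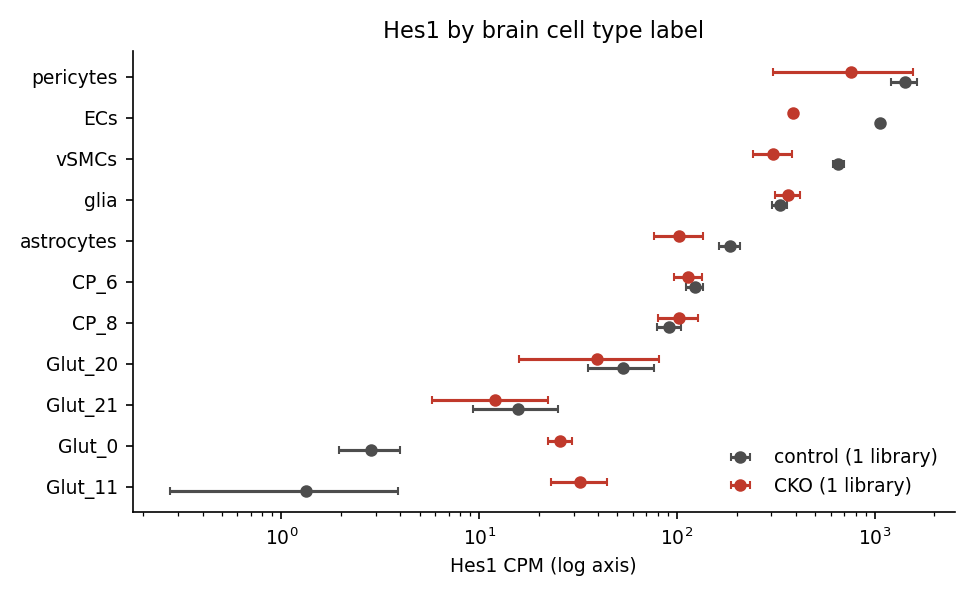
*Hes1* level in the 11 brain labels with at least 20 *Hes1* UMIs, in CPM on a log axis, with 1 point per library (control and CKO) and bars for exact 95% counting intervals. CKO points lie below control in ECs and vSMCs and above it in Glut_0 and Glut_11.

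Other calls rested on *Jag2*, *Rbpj*, *Notch1* or *Jag1*. In Glut_0, 2 of 3 measured members were called, *Hes1* and *Jag2*, which fell from 13.7 CPM (159 UMIs) to 4.10 CPM (34 UMIs), a ratio of 0.300 (0.201 to 0.436). In Glut_1, with 27.0% of genes called, both measured members were lower, *Jag2* at 9.09 and 4.07 CPM (0.448) and *Rbpj* at 17.6 and 11.5 CPM (0.655), which was not called after TMM scaling (0.684). *Rbpj* was also lower in Glut_11 (22.1 and 10.5 CPM, 0.477), in Glut_17 (39.0 and 15.6 CPM, 0.400, with 29.0% of genes called) and in Glut_19 (30.2 and 15.9 CPM, 0.529, with 21.2% called), and higher in Glut_5 (8.78 and 34.3 CPM on 14 and 6 UMIs, a ratio of 3.91 that became 2.54 after TMM scaling, with 54.4% called). *Rbpj* in Glut_0, Glut_14 and Glut_21 was measured and not called. Genes at large leaned the same way in Glut_1 (21.1% lower and 5.92% higher), Glut_11 (22.5% and 10.1%) and Glut_17 (22.3% and 6.65%).

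In microglia, *Rbpj* went from 5480.1 CPM (438 UMIs in 129 nuclei) to 1161 CPM (17 UMIs in 11 nuclei), a ratio of 0.212 (0.122 to 0.343) that became 0.0958 after TMM scaling, where 84.0% of genes were called. The immune markers of that label fell alike, from 5 of 5 at 5067 CPM to 4 of 5 at 752 CPM with *C1qa* at 0 and *Csf1r* leading. Some markers of other cells rose there, neuron markers from 613 to 2733 CPM (4 of 6 in both, led by *Snap25* and then *Rbfox3*). OPC markers rose from 813 to 1981 CPM (4 of 4, led by *Ptprz1*) and astrocyte markers from 50.0 to 752 CPM (led by *Slc1a2*). Others fell, among them EC markers from 500 CPM (7 of 10, led by *Flt1*) to 0 and bipolar cell markers from 1063.5 to 547 CPM (*Prkca* alone). The part of these shifts was not tested. In CP_6, with 23.2% of genes called, 1 of 7 measured members was called, *Jag1* at 4.54 and 7.32 CPM (15 and 10 UMIs; 1.61, 0.647 to 3.83), while *Notch1* (133 and 135 CPM), *Hes1* (123 and 114 CPM) and *Hey1* (41.8 and 35.1 CPM) were not. In CP_8, with 34.3% of genes called, 1 of 4 was called, *Notch1* at 10.1 and 18.2 CPM (23 and 13 UMIs; 1.80, 0.835 to 3.70).

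Across brain labels, each member was set against all other genes by Pearson correlation of log2(CPM + 1) over 36 values, from 18 labels in both libraries, so that points share libraries and depth. Among 14448 genes, those most like *Dll4* were *Gata2* (0.992), *Sox7* (0.978) and *Slc52a3* (0.975). Those most like *Notch4* were *Ecscr* (0.987), *Sema3g* (0.985) and *Gata2* (0.979). Both genes had most of their UMIs in ECs, and *Notch4* and *Dll4* were also the most alike of the 45 member pairs (0.969). *Jag1* was most like *Poglut3* (0.974), *Pelo* (0.969) and *Heyl* (0.960), and *Heyl* was most like *Tbx2* (0.968), *Jag1* and *1700018A04Rik* (0.958). *Hes1* was closest to *Emp2* (0.928), *Mmp14* (0.911) and *Ackr3* (0.910), and *Notch1* to *Wwtr1* (0.950), *Pon2* (0.934) and *Fermt2* (0.928). *Hey1* was closest to *Mob1a* (0.969), *Sf3b4* (0.965) and *Slc2a1* (0.964), and *Hey2* to *Itpkb* (0.914), *Yap1* (0.911) and *Rgs12* (0.906). *Jag2* was closest to *Gnpda2* (0.903), *Agrn* (0.902) and *Polr1f* (0.871), and *Rbpj* to *Snx18* (0.904), *Pla2g4a* (0.876) and *Jmy* (0.853). The least alike pair of members was *Jag2* and *Rbpj* (0.388).

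In the retina control, *Hes1* and *Notch1* lay mostly in Müller glia (label MG), with 83.0% of 1720 and 78.4% of 292 UMIs. *Jag1* lay mostly in rods (59.1% of 1226 UMIs), and *Hey2* in rods (33.6%) and Müller glia (32.6% of 298 UMIs). *Dll4* had 57 UMIs, 43.9% of them in the label GABA_AC, and *Notch4*, *Heyl* and *Hey1* had 18, 20 and 55. These shares follow the number of nuclei per label too: by CPM, *Jag1* was alike in rods (84.3) and cones (80.2), and *Hey2* was at 11.6 in rods and 64.2 in Müller glia. *Notch1* and *Hes1* were centred on Müller glia, and the members typical of vessels were close to their detection limit in a retina table with no EC label. In the CKO libraries together, 79.95% of *Hes1* and 52.8% of *Notch1* UMIs were in Müller glia. *Rbpj* was found in all labels, with 29.0% of 2218 control UMIs in rods.

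Müller glia numbered 402 nuclei with 1511111 UMIs in control, and 10 CKO libraries had at least 20 such nuclei. Their 6 defining markers summed to 2999 CPM in control, led by *Slc1a3*, and 2389 to 3337 CPM in CKO. *Hes1* was at 945.0 CPM in control (897 to 995; 1428 UMIs) and at 253 to 837 CPM in CKO, with a median of 557 and a mean of 542 ± 234 CPM (SD, n = 10). All 10 CKO libraries lay below the control, and the 6 made with the 4PLUS version of the PIPseq kit (472 to 837 CPM) lay above the 4 made with version 5 (253 to 368 CPM). Kit thus divided the CKO libraries without overlap, so kit was a term in the model. Within the control's own batch in the authors' metadata, the 3 CKO libraries were at 472 to 731 CPM, again all below the control. The log2 difference with kit in the model was −0.45 ± 0.26 (SE), with an adjusted p of 0.883 (edgeR quasi-likelihood, Benjamini-Hochberg) and all 10 libraries in that direction. An exact two-sided permutation test over libraries, which ignores kit and so includes the spread between kits, gave p = 0.364, and the smallest p this design allows is 0.0909, so it cannot pass 0.05. Without the kit term the log2 difference was −0.87, and with batch in its place −0.68. With 4PLUS libraries alone it was −0.46. The only control was made with 4PLUS, so in every retinal fit with kit as a term the genotype difference rests on the 4PLUS libraries. Counts of libraries above or below the control include both kits.

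*Jag1* went the other way in Müller glia, at 18.5 CPM in control (12.3 to 26.8; 28 UMIs) and 19.7 to 45.1 CPM in CKO, with a median of 35.2 and a mean of 33.2 ± 8.65 CPM. All 10 CKO libraries lay above the control, the lowest only just. The log2 difference was 0.67 ± 0.41, with an adjusted p of 0.883 (edgeR quasi-likelihood, Benjamini-Hochberg; 10 of 10 libraries higher), and the exact permutation p was 0.0909, the smallest possible. *Notch1* was at 152 CPM in control and 122 to 171 CPM in CKO (median 146, mean 146 ± 16.5), with 2 CKO libraries above the control. *Hey2* was at 64.2 CPM and 39.8 to 71.2 CPM (median 58.7), again with 2 above. The groups overlapped for both genes. *Rbpj* was at 90.0 CPM in control and 81.6 to 123 CPM in CKO (median 96.4), and here too the kits stood apart, at 81.6 to 98.1 CPM for 4PLUS and 99.5 to 123 CPM for version 5. EC markers in Müller glia, 7 of 10 in control and led by *Flt1*, summed to 938 CPM in control and 784 to 1487 CPM in CKO. These EC transcripts overlapped between genotypes. Retinal astrocyte markers, 4 of 5 in control and led by *Aqp4*, did not, at 181 CPM in control and 199 to 382 CPM (median 299) in CKO, and the part of either list in the member values was not tested.

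**Figure D4:**
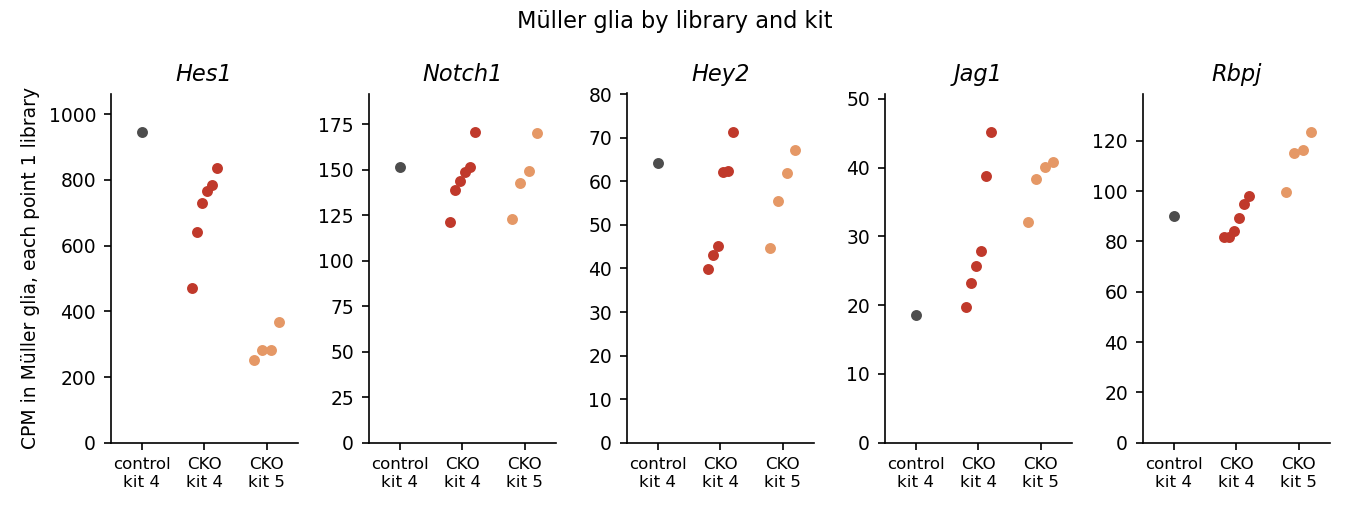
Levels of *Hes1*, *Notch1*, *Hey2*, *Jag1* and *Rbpj* in retinal Müller glia, in CPM from 0, with 1 point per library and columns for the control (kit 4PLUS), CKO libraries of kit 4PLUS and CKO libraries of kit version 5. For *Hes1*, all 10 CKO points lie below the control at 945.0 CPM, and the 4 points of version 5 lie lowest.

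Across all genes, edgeR called 1 of 12992 in Müller glia at an adjusted p under 0.05, or 0.0077%, and 0 of the 5 members tested. At an unadjusted p under 0.05 it found 782 genes and 0 members, and DESeq2 called 107 genes, or 1.22% of 8790 (810 at an unadjusted p under 0.05), again with 0 of 5 members. The members' median log2 difference was −0.08, beside 0.03 over all genes tested. The gene called was *Gm17167*, a predicted gene lower in CKO with a log2 difference of −2.80 ± 0.20, named here after its values were seen. Of the wider pathway list, 0 of 53 tested genes were called in Müller glia. At an unadjusted p under 0.05 the list had *Tle1* (−0.54), *Tle4* (−0.55) and *Cntn1* (−0.36) lower and *Neurl1a* (1.02), *Tle3* (0.81) and *Lfng* (0.72) higher, in log2. *Lfng*, lower in CKO brain ECs on 1 library per genotype, was not called in Müller glia, so no contrast between tissues is read from it.

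In rods, *Jag1* was at 84.3 CPM in control (725 UMIs) and 46.8 to 98.7 CPM in CKO (median 90.9), with version 5 libraries (91.6 to 98.7 CPM) above 4PLUS libraries (46.8 to 91.2 CPM). *Jag1* in cones was at 80.2 CPM and 47.7 to 112 CPM (median 92.5), with the same order of kits. The control fell inside the CKO range in both photoreceptor types. *Hey2* in rods was at 11.6 CPM in control (9.46 to 14.1; 100 UMIs) and 13.2 to 28.8 CPM in CKO (median 18.9), with all 10 libraries above the control. Its log2 difference was 1.03 ± 0.41, with an adjusted p of 1 (edgeR quasi-likelihood, Benjamini-Hochberg; 10 of 10 libraries higher) and an exact permutation p of 0.0909, the smallest possible. *Notch1* in rods was at 1.98 CPM (17 UMIs) and 0 to 17.6 CPM (median 9.19), with 9 libraries above the control. *Rbpj* in rods was at 74.7 CPM and 71.8 to 107 CPM (median 87.4), with 9 above and version 5 (95.6 to 107 CPM) above 4PLUS (71.8 to 89.7 CPM). edgeR called 0 of 14146 genes in rods (0%), with 349 genes and 1 member (*Hey2*) at an unadjusted p under 0.05 and 0 of 7 members called. In cones it called 1 of 9645 genes (0.0104%; *Gm17167* again), with 286 genes and 0 members at an unadjusted p under 0.05 and 0 of 3 members called.

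In inner retinal labels most members were scarce. *Notch1* in CBC was at 1.13 CPM (6 UMIs) in control and 1.13 to 5.98 CPM in CKO (median 4.65), with 9 of 10 libraries above, and in Gly_AC at 0.848 CPM (3 UMIs) and 1.89 to 10.4 CPM (median 5.70), with all 10 above. The log2 differences were 1.96 ± 0.78 and 2.46 ± 1.03, each with an adjusted p of 1 (edgeR quasi-likelihood, Benjamini-Hochberg; 9 of 10 and 10 of 10 libraries higher). Low *Notch1* in the single control library was thus shared by CBC, Gly_AC and rods, which come from the same library and are not independent. *Hey2* in Gly_AC was at 2.83 CPM and 3.85 to 8.76 CPM (median 6.08), with 10 above, and *Jag2* in CBC at 18.3 CPM and 19.0 to 31.9 CPM (median 23.3), with 10 above. In GABA_AC, *Dll4* was at 4.51 CPM (25 UMIs) and 1.06 to 4.24 CPM (median 2.90), with 0 above, and *Hey1* at 1.98 CPM and 2.32 to 4.95 CPM (median 3.54), with 10 above. *Hes1* in GABA_AC was at 20.6 CPM and 2.70 to 28.0 CPM (median 11.1), with 1 above. The control thus lay at the edge of the CKO range for several genes, in both directions.

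edgeR called 0 members in each of these labels. In CBC it called 0 of 14679 genes (0%), with 442 genes and 1 member (*Notch1*) at an unadjusted p under 0.05, among 7 members tested. In Gly_AC it called 1 of 13782 (0.00726%; the metalloprotease gene *Adamts19*, higher with a log2 difference of 4.01 ± 0.30 and also named after its values were seen), with 498 genes and 1 member (*Notch1*) at that level, among 6 tested. GABA_AC had 1 of 14791 genes called (0.00676%; *Gm17167*), with 184 genes and 0 of 8 members at an unadjusted p under 0.05. RBC had 0 of 11700 (0%), with 383 genes and 0 of 5 members, and HC had 0 of 10861 (0%), with 318 genes and 0 of 5 members. RGC had 0 of 13210 (0%), with 159 genes and 0 of 6 members, and Immune_cells had 0 of 5967 (0%), with 229 genes and 0 of 2 members. Single members varied widely between CKO libraries in these labels: *Hes1* in HC was at 65.4 CPM in control and 3.62 to 84.9 CPM in CKO (median 42.4), and in RGC at 29.3 CPM and 0 to 52.7 CPM (median 23.9). *Jag2* in RBC, its highest retinal label in control, was at 24.8 CPM and 17.1 to 38.5 CPM (median 25.5). The spread among CKO libraries covered the control in each of these cases.

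*Rbpj* was found throughout the retina, from 48.1 to 105 CPM in the control over the fitted labels. Kit version 5 libraries stood above 4PLUS libraries in CBC (87.3 to 97.9 against 63.1 to 80.5 CPM), in GABA_AC (76.5 to 95.7 against 53.9 to 67.7 CPM) and in Gly_AC (99.1 to 111 against 64.2 to 86.7 CPM), as in rods and Müller glia. In Immune_cells *Rbpj* was at 105 CPM (12 UMIs) in control and 104 to 1650.0 CPM in CKO (median 204), the highest value being replicate 4. The log2 difference of 1.51 became 0.86 without that library. In RGC, *Rbpj* was at 48.6 CPM and 42.4 to 692 CPM (median 61.9), and its log2 difference of 0.34 became 0.02 without replicate 4. A single shallow library therefore carried much of both *Rbpj* differences. By the study's account, microglia were found in both genotypes and other immune cells only in CKO retinas. The label Immune_cells thus holds a different mix of cells in each genotype. Markers also differed within Immune_cells: the 5 immune markers, led by *P2ry12* in control, summed to 1232 CPM in control and 751 to 5461 CPM in CKO (median 1208), and the 4 bipolar cell markers, led by *Prkca*, to 4045 CPM and 23.2 to 2069.9 CPM (median 1104). The part of these shifts in the *Rbpj* difference was not tested. Retinal astrocytes were not fitted, since the control had 12 of them: *Hes1* was at 863 CPM there (27 UMIs), against 181 to 361 CPM in the 4 CKO libraries with at least 20 nuclei, and *Notch1* at 128 CPM (4 UMIs) against 181 to 270.2 CPM.

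Promoter sequences were read for the members from a RefSeq table for GRCm38.p6 as 300 bases around the start of transcription, and 7 of 10 members matched; *Hes1*, *Hey1* and *Heyl* had no entry. They are shown because *Hey2* and *Notch4* were both lower in ECs while RBPJ binds the letters GTGGGAA, which were searched on both strands (reverse complement TTCCCAC). These letters are in 2097 of 32851 promoters of that length (6.38%), and among the members in *Hey2* alone, at positions 44 (as TTCCCAC) and 247 (as GTGGGAA), counted from 1 at the 5′ end. The *Hey2* promoter is chr10:30842734-30843033 on the minus strand with 72.0% G and C, and the *Notch4* promoter is chr17:34564045-34564344 on the plus strand with 58.3%. The capitals below mark matches to these letters, and the *Notch4* stretch holds none.
Hey2: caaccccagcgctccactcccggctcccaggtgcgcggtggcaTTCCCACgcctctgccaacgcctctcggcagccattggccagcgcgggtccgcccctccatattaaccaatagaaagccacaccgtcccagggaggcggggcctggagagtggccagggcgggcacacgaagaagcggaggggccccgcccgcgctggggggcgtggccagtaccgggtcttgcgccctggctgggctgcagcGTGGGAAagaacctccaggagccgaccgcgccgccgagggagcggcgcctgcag
Notch4: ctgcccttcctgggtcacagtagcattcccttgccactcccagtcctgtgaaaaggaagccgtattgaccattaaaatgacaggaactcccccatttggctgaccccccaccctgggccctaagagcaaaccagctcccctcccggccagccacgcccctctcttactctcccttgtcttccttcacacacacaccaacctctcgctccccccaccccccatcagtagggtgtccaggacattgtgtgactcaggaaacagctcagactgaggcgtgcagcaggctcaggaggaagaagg
The letters CACGTG, bound by Hes and Hey related factors, are in 7.15% of promoters and in none of the 7 members, and CACGCG (reverse complement CGCGTG) is in 9.27% and in *Dll4* (position 56), *Jag1* (positions 2 and 80) and *Jag2* (position 269). A match describes letters in this window and was not tested for binding.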

How the data were processed

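Single-nucleus RNA libraries from 14 samples were used: brain vascular fragments (1 control, 1 CKO) and whole retina (1 control, 11 CKO), grouped by the genotype in the labels. The deposited values are UMI counts per gene and nucleus, made by the authors with PIPseeker, CellBender for background and SOLO with manual curation to remove doublets; no further doublet removal was done. The submitters' processing notes name mm10 and Seurat, while the study's methods name a GRCm39 index; genes were matched by symbol. Cell type labels are the authors' own. Barcodes shared between libraries numbered 2 in brain and 10 in retina, and nuclei were kept apart by library. The members and lists were chosen with earlier results of these data known. UMIs were summed per label and library and divided by the label's total to give CPM, with exact Poisson, conditional binomial and Clopper-Pearson 95% intervals, which cover counting error only. Brain calls used a 1.5-fold ratio with at least 50 UMIs in ECs and 20 elsewhere. Retina labels with at least 20 nuclei in the control and in at least 6 CKO libraries were tested with edgeR's quasi-likelihood test (TMM, filterByExpr, kit as covariate, Benjamini-Hochberg over all genes, threshold 0.05); the only control was assumed to vary like the CKO libraries. The SE of an edgeR log2 difference was derived from the test, as the size of the difference divided by the square root of the F statistic. DESeq2 was an alternative for Müller glia. Marker genes named were leaders of their list or genes at 0. The other genes named were the 10 members in every label, *Tgfbr1*, and the 3 genes most correlated with each member. Pathway genes were named where called in ECs or a retinal label, or most abundant in their role. *Notch3*, *Nrarp*, *Neurl1a*, *Tle1*, *Tle3*, *Tle4*, *Gm17167* and *Adamts19* fall outside this rule and were chosen after values were seen. Other scalings, nuclei, folds, covariates and libraries were tried as alternatives. Some marker values are not reported here. Fits were tested on simulated data, but no result of those runs is reported or used here. Versions were R 4.3.3 with edgeR 4.0.16 and DESeq2 1.42.0, and Python 3.11.15 with pandas 2.3.3, matplotlib 3.10.9, scipy 1.17.1 and numpy 2.4.6.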

Additional observations from a re-analysis of the deposited data

Results flagged for a closer look

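Of 56 sets of CKO libraries examined in the retina, 5 held a library far from the others, and chance alone does so in about 1 in 20. *Hey2* in cones was at 15.1 CPM in CKO replicate 11 (12 UMIs), against 4.81 to 10.1 CPM elsewhere. In GABA_AC, CKO replicate 7 had low *Jag2*, at 10.8 CPM (34 UMIs) against 18.1 to 24.5 CPM, and high *Hes1*, at 28.0 CPM (88 UMIs) against 2.70 to 13.1 CPM. *Rbpj* in Immune_cells was at 1650.0 CPM in CKO replicate 4, on 71 UMIs in 65 nuclei, against 104 to 351 CPM. *Hes1* in rods was at 3.87 CPM in CKO replicate 11 (27 UMIs), against 0 to 1.41 CPM.

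The brain *Hes1* ratio was above 1 in Glut_0 (9.05) and Glut_11 (24.4) and below 1 in ECs (0.362), from the same pair of libraries. These opposite directions rest on 1 library per genotype, and their difference was not tested.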

How the results depend on the processing

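Of 70 ratios of members in brain ECs recomputed under other settings, 51 stayed within the counting interval of the first ratio, 19 moved beyond it, and 0 called values changed direction. At a fold of 2, the members called in ECs went from 3 to 1 (*Hes1*), as fewer ratios are that large. In Müller glia, the number of genes called was 1 with edgeR, 107 with DESeq2 and 4 with no filter on low counts, and 1 to 6 when single libraries were left out (6 without CKO replicate 7); the cause was not tested. Members were not called in any of these fits. The log2 difference of *Rbpj* in Müller glia was −0.06 with kit in the model and 0.039 without it, as kits differ in *Rbpj*; neither was called. Over all settings those of *Hes1* ran from −0.87 to −0.36 and those of *Jag1* from 0.50 to 0.76. Fits without CKO replicate 4 in RGC and Immune_cells were chosen after seeing the data. Further fits of other retinal labels (DESeq2, batch, each library left out) were planned only where a member was called, and were not run. No paired analysis was possible because the groups share fewer than 2 replicate numbers. The single control library and 1 library per brain genotype limit every comparison here, and low counts limit *Notch4* (18 control UMIs) and *Heyl* (20) in the retina.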
